A study of Homo sapiens with 8 samples.

Results

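The enhancer landscape of 10 genes of the WNT pathway was described in 4 human medulloblastoma (MB) lines. The genes were the feedback regulators *AXIN2* and *NKD1*, the TCF/LEF transcription factors *LEF1*, *TCF7*, *TCF7L1* and *TCF7L2*, the secreted antagonists *DKK1* and *WIF1*, the ligand *WNT5A* and the R-spondin receptor *LGR5*. They were taken by name from 19962 protein-coding genes, with earlier results of these data known. A stitched enhancer region belonged to a gene when it overlapped the gene body or lay within 50 kb of the start site. By this rule the 10 genes had 69 of the 88550 regions deposited for the 4 lines, namely 22 of the 26072 regions that MB002 had, 19 of 26317 for D425, 18 of 15286 for HD-MB03 and 10 of 20875 for UW228.

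In the absence of a WNT ligand, a cytoplasmic complex built on AXIN proteins marks β-catenin for destruction, and TCF/LEF factors sit at their target genes with co-repressors. Ligand binding to Frizzled and LRP receptors stops this destruction, and β-catenin enters the nucleus and turns TCF/LEF-bound genes on. *AXIN2*, *NKD1*, *LEF1*, *TCF7* and *LGR5* are well known targets that respond in this way, and *DKK1* and *WIF1* encode proteins that block the pathway outside the cell. One molecular subgroup of MB is defined by WNT activation, and none of the 4 lines carries that label.

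H3K27Ac, a histone mark of active promoters and enhancers, was mapped by ChIP-seq in UW228, which is labelled as SHH subtype, and in HD-MB03, D425 and MB002, which are labelled as Group 3 (G3-MB) lines. A line was represented by 1 H3K27Ac library and its input from untreated cells, so there are no replicates, no test between lines was possible, and every difference below is a difference between single libraries. MB002 and HD-MB03 were grown in a serum-free stem cell medium and D425 and UW228 in DMEM with serum, so the medium divided the G3-MB lines and did not follow the subgroup. The region calls of UW228 carry a later creation date than those of the G3-MB lines, so subgroup and the date of the calls cannot be told apart. Whether the libraries were also made at separate times is not known.

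The signal of a region is its H3K27Ac value minus its input value, floored at 0. Both values are read densities, corrected for library size and summed over the whole region, so a long region of modest height can outrank a short, tall one. The signal of a gene is the sum over its regions, and its median over all genes with a region was 3647 for MB002, 3543 for D425, 3259 for HD-MB03 and 4455 for UW228. Ranks count from 1, the highest signal in the line. Super-enhancers (SEs), the top-ranked regions as called by the authors with ROSE, numbered 363, 431, 302 and 753, respectively. Library depth is unknown. Of 5 genes that mark G3-MB (*OTX2*, *NRL*, *CRX*, *IMPG2* and *MYC*), all 5 had regions in each G3-MB line and 2, *IMPG2* and *MYC*, had them in UW228. The signal of *MYC* was 24370 in UW228, above the 3638 of HD-MB03 and below the 211226 of D425 and 340819 of MB002. Of 5 genes that mark SHH-MB (*GLI1*, *GLI2*, *ATOH1*, *HHIP* and *PDLIM3*), 4 had regions in UW228, and *ATOH1* had none in any line. Their summed signal in UW228, 15514, was below the 38722 to 100104 of the G3-MB lines. *GLI1* alone gave 36043 of the 38722 in D425, where *GLI2* and *HHIP* had no region. *PDLIM3* was higher in UW228 (11192) than in MB002 (8453) and D425 (2679), and lower than in HD-MB03 (44415). The SHH-MB markers thus differed in their order, and 5 genes added after the data were seen cannot decide the label of a line. UW228 is called by its name here.

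All 10 genes had at least 1 region in MB002, where 70.7% of all genes did. D425 had regions at 7 of the genes, HD-MB03 at 6 and UW228 at 5, against 72.8%, 58.1% and 61.7% of all genes, respectively. With the upper 50% of ranks only, MB002 had regions at 5 of the 10 genes and UW228 at 3, where 51.8% and 40.9% of all genes had them. *TCF7*, *TCF7L1* and *TCF7L2* had regions in all 4 lines, as did 35.8% of all genes. *TCF7L1* had an SE in each of the 3 G3-MB lines and *TCF7L2* had one in UW228, and no other gene of the 10 had an SE. With regions ordered by mean signal per base pair, 0 of the 10 had one in any line, and without input subtraction *TCF7L1* lost it in HD-MB03. After division by the input per base pair of each region, relative to the median of the line, the genes with an SE numbered 3 in MB002, where *NKD1* and *TCF7L2* were added, and 2 in D425, where *TCF7L2* was added. Over all genes, an SE as called by the authors was found at 3.33% for MB002, 4.31% for D425, 3.09% for HD-MB03 and 4.95% for UW228. In all 3 G3-MB lines, 0.371% (74 genes) had one. These shares were not computed for the other ways of ranking. The signal of UW228 lay above all 3 G3-MB lines at *TCF7* and *DKK1*, and below all 3 at *NKD1*, *TCF7L1* and *LGR5*. These 2 and 3 of 10 genes compare with 29.0% and 24.5% of the 17748 genes with a region in any line. The same genes passed when UW228 had to be at least 2 times the highest G3-MB line, or at most 0.5 times the lowest, which 20.5% of all genes did in each direction. The count above the G3-MB lines was 4 with a window of 25 kb, with the gene body only or without D425, and 1 with a window of 100 kb. Of the genes below the G3-MB lines, *LGR5* was lost with the upper 50% of ranks and without regions under 1 kb, *WIF1* joined with a window of 100 kb and *AXIN2* joined without D425. The shares of all genes above and below were not computed with these other settings. With the 50 kb window, all regions and all lines, the counts of genes above and below were near those of all genes. What follows is about where and how strongly each gene was marked.

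**Figure D1:**
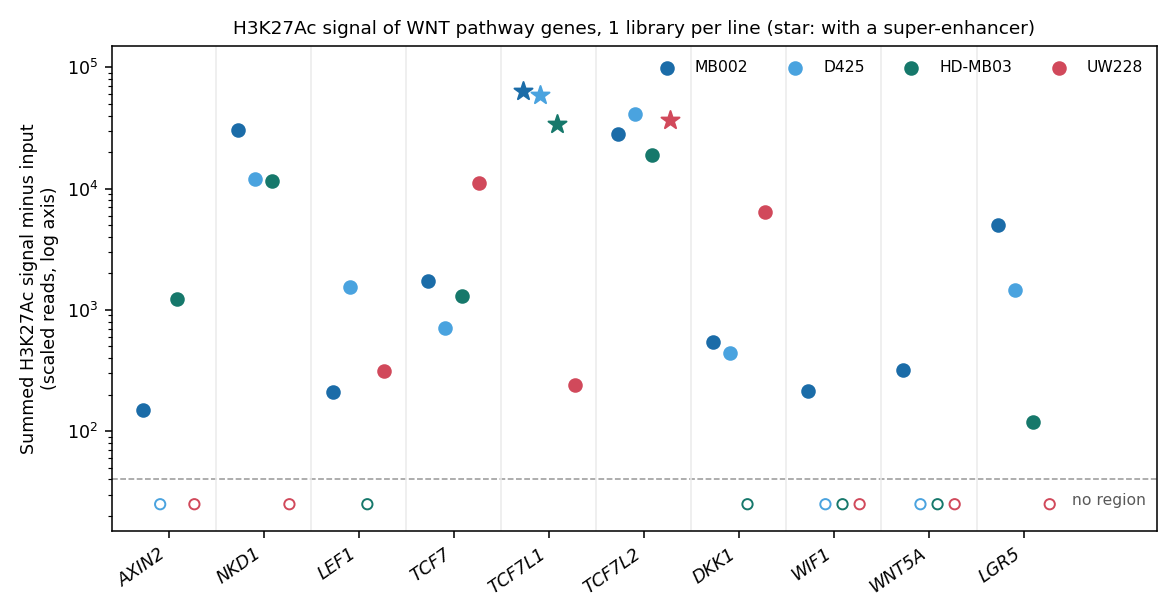
Summed H3K27Ac signal minus input (scaled reads, log axis) of the 10 genes, with 1 point per line; stars are genes with an SE and open circles below the dashed line are genes with no region. *TCF7L1* is at 34365 or more in the 3 G3-MB lines and at 241 in UW228, and *TCF7* and *DKK1* are highest in UW228.

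*TCF7L1* encodes the TCF/LEF factor best known as a repressor of WNT targets in stem and progenitor cells. MB002 had a summed signal of 63998 at this gene, D425 of 58792, HD-MB03 of 34365 and UW228 of 241. The 3 G3-MB lines lay within 1.86-fold of each other, and the summed signal of the lowest was 142-fold that of UW228, over regions called separately in each line. Among genes with a region, 1.78% to 4.49% were higher in the G3-MB lines, whereas 92.3% were higher in UW228. The gap was larger in length than in height. The regions of the gene covered 39.7 to 53.6 kb in the G3-MB lines and 0.582 kb in UW228, and the mean signal per base pair was 0.865 to 1.46 and 0.415, respectively. The log2 ratio of UW228 to the highest G3-MB line was -8.05 for the summed signal, -6.04 with the start sites of all transcripts and -1.81 per base pair, so the direction held and the size did not.

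The SE of *TCF7L1* lay deep in the gene (chr2:85133392-85310387, GRCh38, plus strand). Distances are given in the direction of transcription, and negative values lie before the start site. The SE ran from 101.4 to 127.2 kb in MB002 (rank 111), from 110.0 to 134.2 kb in D425 (rank 99) and from 109.0 to 124.5 kb in HD-MB03 (rank 234), and overlapped no exon. The input over the SE of D425 was 1.67 times the median of the line, and its rank was 261 after division by the relative input. The SE held 90.2%, 91.1% and 76.5% of the gene's signal for MB002, D425 and HD-MB03. The 3 SEs shared 14504 bases at chr2:85243415-85257918. UW228 had a region of 275 bp inside this stretch (rank 20119 of 20875) and another of 307 bp at 153.9 kb (rank 20289). The start site closest to the centre of the SE was that of *TGOLN2*, in the SE of each G3-MB line, so the link to *TCF7L1* rests on the overlap with its gene body. *TGOLN2* and the closest genes named below were picked out after the values were seen. These SEs contained the start site of no protein-coding gene.

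The 276 bases at chr2:85249158-85249433 on the plus strand are the only stretch of the *TCF7L1* SE called in all 4 lines, a small and low-ranked peak in UW228 and part of an SE in the others. They are intronic and 51.4% GC. The stretch has no match to CTTTGAT, the 7-base core of the TCF/LEF consensus, on either strand.
TCF7L1, called in all 4 lines: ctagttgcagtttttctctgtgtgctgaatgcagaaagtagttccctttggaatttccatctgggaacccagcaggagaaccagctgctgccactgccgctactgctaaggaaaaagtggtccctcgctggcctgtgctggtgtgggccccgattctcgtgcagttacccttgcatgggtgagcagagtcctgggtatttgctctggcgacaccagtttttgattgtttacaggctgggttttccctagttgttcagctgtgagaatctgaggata

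The wider stretch shared by the 3 G3-MB SEs had 2 matches, at 122.0 and 124.1 kb. They are shown with 10 bases on each side, with the match in capitals, because they are the only TCF/LEF core letters in the 14504 bases. The first is on the plus strand (chr2:85255429-85255455) and the second on the minus strand (chr2:85257524-85257550).
TCF7L1, 122.0 kb: aggaaaatggCTTTGATgtatggaatc
TCF7L1, 124.1 kb: aagctgctgcCTTTGATgctttcttca

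Outside the SE, the G3-MB lines shared less at *TCF7L1*. MB002 and D425 had regions that overlapped at 29.2 to 30.4 kb, and MB002 and HD-MB03 had regions that overlapped at 81.6 to 83.0 kb. All 3 had a region between 143.2 and 168.5 kb, with ranks of 4770, 7922 and 4632. HD-MB03 had a region before the gene, from -44.4 to -42.5 kb (rank 5491), and the other lines had none there.

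*TCF7L2* encodes the TCF/LEF factor most widely used by β-catenin in adult epithelia and in the nervous system. D425 had the highest summed signal, 41124, followed by UW228 with 37129.5, MB002 with 28249 and HD-MB03 with 18800.2. UW228 thus lay within the G3-MB lines, and the 4 lines together spanned 2.19-fold. The place of UW228 among the lines depended on the setting. The log2 ratio of UW228 to the highest G3-MB line was -0.15. It was 0.034 with a window of 25 kb or the gene body only and 0.46 without regions over a start site. With D425 left out, the ratio was taken to MB002, then the highest G3-MB line, and was 0.39. *TCF7L2* was the only gene of the 10 with strong signal in every line. In the G3-MB lines a region lay over the start site (chr10:112950247, plus strand), from -11.7 to 11.7 kb in MB002 (rank 1282), -11.1 to 16.5 kb in D425 (rank 1167) and -0.564 to 3.18 kb in HD-MB03 (rank 978). In UW228 the region nearest the start site began at 2.64 kb (rank 3508), just outside the 2.5 kb around promoters that the authors' methods exclude. The exclusion was not complete, as each line kept 92 to 140 regions of a single peak within 2.5 kb of a start site, and the region of HD-MB03 over this start site is also a single peak, so an absence over the start site itself cannot be read from these regions.

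The strongest region of *TCF7L2* in UW228 was an intronic SE from 95.2 to 144.5 kb (rank 693, 49.3 kb, 11 stitched peaks), with 69.6% of the gene's signal. The G3-MB lines had regions in the same span. D425 had a longer one from 106.6 to 191.2 kb (rank 677, 84.6 kb, 23 peaks) that was not called as an SE and was also its strongest region, above that over the start site. MB002 had a region from 106.2 to 112.8 kb (rank 2870), and HD-MB03 had regions from 106.8 to 114.3 kb (rank 2407) and from 135.5 to 146.6 kb (rank 6804). Its signal of 20178 was below the lowest signal of an SE in D425, 26267, whereas the SE of UW228 had 25841. The mean signal per base pair was 0.524 in the SE of UW228 and 0.239 in the long region of D425.

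The promoter of *TCF7L2* (RefSeq, GRCh38.p14, chr10:112949997-112950296, plus strand) is shown because among the windows found, for 7 of the 10 genes, it is the only one that a region covered in more than 1 line. It was covered in MB002, D425 and HD-MB03 and not in UW228, is 65.7% GC, and has no match to CTTTGAT.
TCF7L2 promoter: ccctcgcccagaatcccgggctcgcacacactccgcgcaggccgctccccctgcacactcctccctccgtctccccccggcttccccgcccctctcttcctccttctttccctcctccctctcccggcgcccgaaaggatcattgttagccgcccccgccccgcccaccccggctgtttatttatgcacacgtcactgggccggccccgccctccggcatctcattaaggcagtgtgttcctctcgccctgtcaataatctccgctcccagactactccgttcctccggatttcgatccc

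*TCF7*, the TCF/LEF factor of T-cell development and itself a WNT target, went the other way from *TCF7L1*. UW228 had a summed signal of 11198, against 1739.7 for MB002, 1309.8 for HD-MB03 and 714 for D425. UW228 was 6.44-fold above the highest G3-MB line, and the G3-MB lines spanned 2.44-fold. The log2 ratio of UW228 to the highest G3-MB line was 2.69, and it was 1.76 with a window of 100 kb, 1.99 with the signal as a share of the total of the line, and 0.50 per base pair. UW228 had a region from 9.19 to 38.4 kb that overlapped 7 exons (29.2 kb, 7 peaks, rank 2407), and each G3-MB line had a region of 7.11 kb or less. The region of HD-MB03 (19.4 to 26.5 kb) lay inside that of UW228, the region of MB002 (35.5 to 41.9 kb) overlapped its end, and that of D425 (38.9 to 42.04 kb) began beyond it, after the gene. The closest start site to the regions of MB002 and D425 was that of *SKP1*. Per base pair, the mean signal was 0.384 in UW228 against 0.184 to 0.272 in the G3-MB lines, so most of the difference was in length.

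*LEF1*, the fourth TCF/LEF factor and a WNT target, had little signal in any line. D425 had 1547, UW228 had 315 and MB002 had 212, and HD-MB03 had no region. In MB002 and D425 the regions overlapped before the gene, at -44.7 to -44.5 kb (ranks 23192 and 9213), and UW228 had an intronic region at 13.0 to 13.6 kb (rank 17145). No region of the G3-MB lines overlapped that of UW228. Within the gene body alone, UW228 was above the G3-MB lines, with a log2 ratio of 1.97 to the highest in place of -2.29. The 235 bases shared by MB002 and D425 (chr4:108213406-108213640, minus strand, 55.7% GC) are shown as the only stretch of *LEF1* called more than once, and have no match to CTTTGAT.
LEF1, called in MB002 and D425: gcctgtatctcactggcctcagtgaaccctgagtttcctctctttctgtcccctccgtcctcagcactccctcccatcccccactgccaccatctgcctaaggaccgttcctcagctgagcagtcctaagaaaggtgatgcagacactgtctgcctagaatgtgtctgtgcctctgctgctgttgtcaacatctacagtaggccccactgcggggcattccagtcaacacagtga

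**Figure D2:**
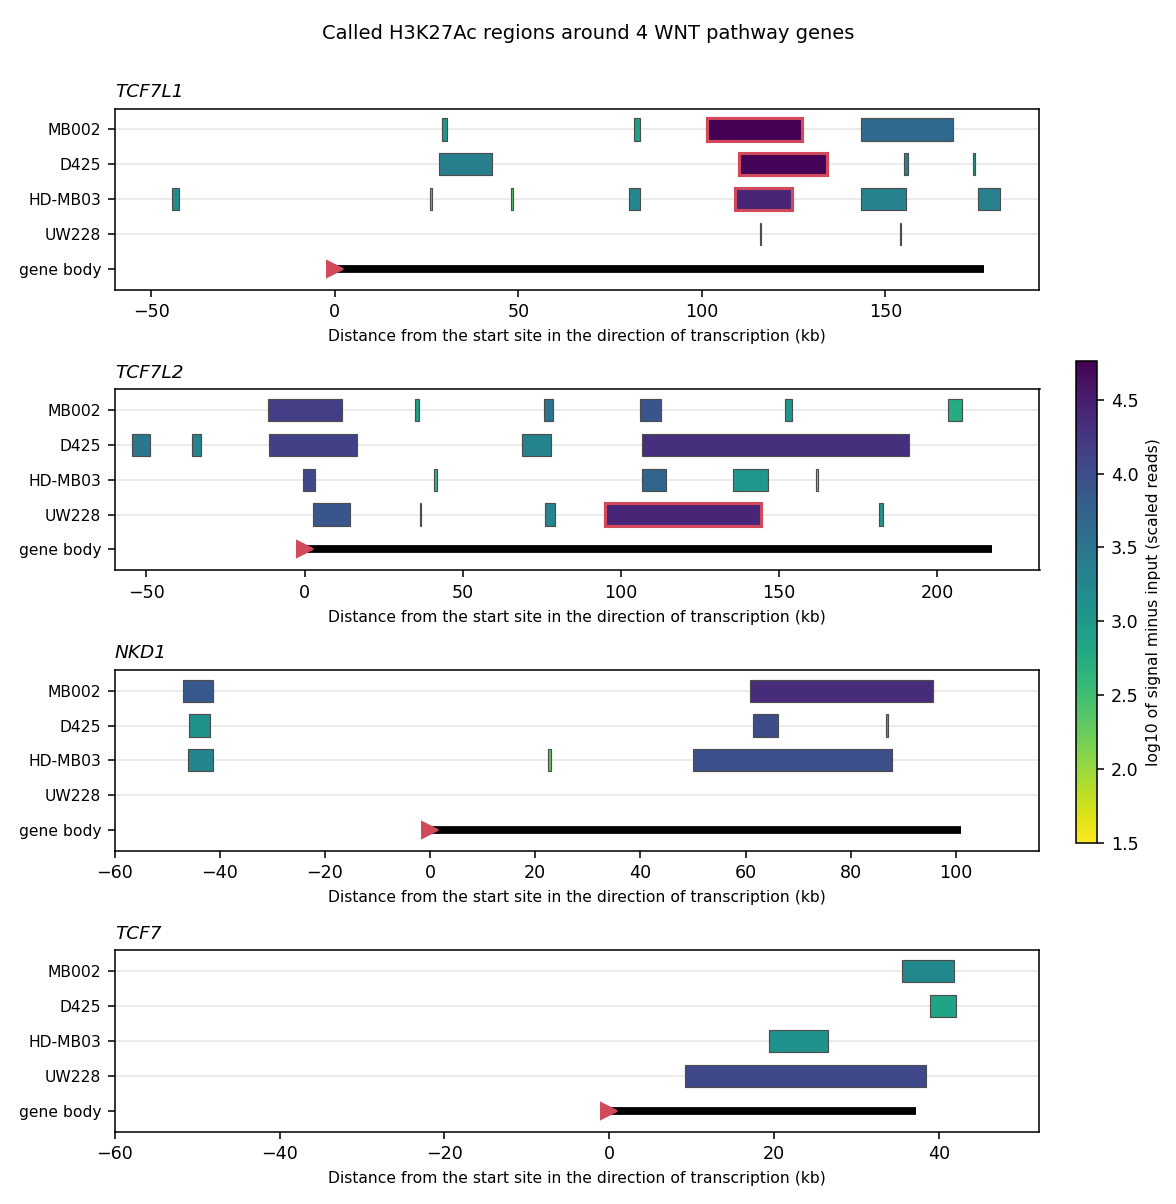
Regions called at *TCF7L1*, *TCF7L2*, *NKD1* and *TCF7* in the 4 lines, by distance from the start site (kb, in the direction of transcription; the arrow marks the start site and the black bar the gene body). Color gives the log10 of signal minus input and a red outline an SE; the SEs of *TCF7L1* in the 3 G3-MB lines overlap between 110.0 and 124.5 kb, where UW228 has a region of 275 bp, and UW228 has no region at *NKD1*.

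Of the feedback regulators, *NKD1*, which binds Dishevelled and dampens signaling, was marked in the G3-MB lines and not in UW228. MB002 had a summed signal of 30278, D425 of 11938 and HD-MB03 of 11647, 2.6-fold from lowest to highest, and UW228 had no region within the gene or within 50 kb of its start site. Most of the signal lay toward the end of the gene (chr16:50548396-50649249, plus strand). The region ran from 60.8 to 95.6 kb in MB002 (rank 663, 5 peaks), from 61.4 to 66.2 kb in D425 (rank 1789) and from 50.02 to 87.8 kb in HD-MB03 (rank 1300, 9 peaks). The signal per base pair was 2.12 in the short region of D425 against 0.658 and 0.249 in the longer ones of MB002 and HD-MB03. The closest start site was that of *NKD1* for D425 and that of *SNX20* for MB002 and HD-MB03. A second region before the gene recurred in all 3 lines and shared the span from -45.9 to -41.9 kb, with ranks of 3056, 9969 and 4762. The main regions were 34.8, 4.81 and 37.8 kb long for MB002, D425 and HD-MB03, and that of D425 lay wholly inside those of MB002 and HD-MB03.

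*AXIN2*, the scaffold protein whose gene is the most general readout of WNT activity, had only weak regions. Its signal was 149 in MB002 and 1237 in HD-MB03, and D425 and UW228 had no region. Both regions lay before the gene, from -3.39 to -3.16 kb in MB002 (rank 22475 of 26072) and from -4.14 to -2.63 kb in HD-MB03 (rank 6330 of 15286), and both also overlapped the body of another gene. Among genes with a region, 68.2% were higher than *AXIN2* in HD-MB03, and nearly all were in MB002. The 235 bases common to both (chr17:65564807-65565041, minus strand, 51.9% GC) are shown as the only stretch of *AXIN2* called in more than 1 line. They hold no match to CTTTGAT.
AXIN2, called in MB002 and HD-MB03: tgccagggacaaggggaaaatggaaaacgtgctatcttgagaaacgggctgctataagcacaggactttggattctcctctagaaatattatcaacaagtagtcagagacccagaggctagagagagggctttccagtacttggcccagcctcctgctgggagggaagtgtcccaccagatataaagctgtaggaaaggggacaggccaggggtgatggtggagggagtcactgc

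Among the secreted antagonists, *DKK1*, which blocks the LRP co-receptor and is itself a WNT target, was highest in UW228. Its signal was 539.9 in MB002, 444 in D425 and 6394 in UW228, and HD-MB03 had no region. The summed signal of UW228 was 11.8-fold that of the highest G3-MB line, over a region of 4771 bp against 1 of 540 bp at another place in MB002. Per base pair the mean signal was 1.34 in UW228, 1.00 in MB002 and 0.394 in D425, so most of the difference was in length. Its region covered most of this short gene (chr10:52314281-52318042, plus strand), from 0.978 to 5.75 kb, with a rank of 4354. The regions of MB002 and D425 lay elsewhere, from -5.81 to -5.27 kb (rank 15855) and from -5.59 to -5.25 kb (rank 20287), and D425 had another at 40.8 to 41.6 kb. No stretch of *DKK1* was called in both UW228 and a G3-MB line. With a window of 100 kb in place of 50 kb, the log2 ratio of UW228 to the highest G3-MB line fell from 3.57 to -0.67, so the order at *DKK1* holds for the nearer regions only.

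The regions of *DKK1* held 4 distinct matches to CTTTGAT, 1 in the stretch called in MB002 and D425 and 3 in the region of UW228. They are shown, with 10 bases on each side and the match in capitals, because they lie in different stretches in the G3-MB lines and in UW228. The first is on chr10:52308723-52308749 (minus strand), the second on chr10:52315440-52315466 (minus strand, intron), and the others on chr10:52319353-52319379 (minus strand) and chr10:52319449-52319475 (plus strand), after the gene.
DKK1, -5.55 kb, MB002 and D425: taaagactctCTTTGATgagcgaagat
DKK1, 1.17 kb, UW228: aagctggtttCTTTGATatctgtatga
DKK1, 5.08 kb, UW228: cctttttctcCTTTGATacagtttagc
DKK1, 5.18 kb, UW228: gttctaattaCTTTGATtttgaaatta

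*WIF1*, which binds WNT ligands directly, had 2 small regions in MB002 and none in the other lines. They lay at -34.6 and -19.9 kb, with ranks of 23527 and 25117 of 26072 and a summed signal of 215. *WNT5A*, a ligand that signals largely without β-catenin, had 1 region, also in MB002, of 487 bp at 19.9 to 20.4 kb (rank 18477, signal 322). Within 50 kb, both genes thus had only low-ranked regions and in 1 line. With a window of 100 kb, *WNT5A* had regions in all 4 lines, with a best rank of 7458 in MB002, and *WIF1* had regions in the 3 G3-MB lines.

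*LGR5*, the R-spondin receptor and intestinal stem cell marker, had its highest summed signal in MB002 with 5021. D425 followed with 1464 and HD-MB03 with 119, and UW228 had no region. The summed signal of the G3-MB lines spanned 42.2-fold here, far more than at *TCF7L1* or *NKD1*. The regions were called separately in each line and covered 23.7 kb in MB002 against 0.257 kb in HD-MB03. Per base pair the order turned, with a mean signal of 0.212 in MB002, 0.463 in HD-MB03 and 0.844 in D425. In MB002 the signal came from a region of 23.5 kb in the gene, from 17.3 to 40.8 kb (rank 4384, 7 peaks). The region of HD-MB03, at 35.1 to 35.4 kb (rank 14262 of 15286), lay inside it, and the place of UW228 below all 3 lines rests on this region of 257 bp. The regions of D425 lay farther on, at 96.6 to 97.9 kb (rank 10383) and 114.0 to 114.5 kb. The 258 bases called in MB002 and HD-MB03 (chr12:71474919-71475176, plus strand, 38.4% GC) are the only part of *LGR5* called in more than 1 line, and have no match to CTTTGAT.
LGR5, called in MB002 and HD-MB03: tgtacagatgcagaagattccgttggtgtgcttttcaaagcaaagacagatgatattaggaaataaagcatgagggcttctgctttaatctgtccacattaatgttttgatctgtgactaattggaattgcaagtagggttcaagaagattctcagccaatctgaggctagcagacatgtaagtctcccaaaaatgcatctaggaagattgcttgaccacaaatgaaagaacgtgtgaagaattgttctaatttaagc

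The input was compared in the same regions. Relative input density is the input per base pair of a gene's regions divided by the median over all regions of the line. At *TCF7L1* it was 0.693 for UW228, 0.951 for MB002, 1.07 for HD-MB03 and 1.52 for D425. At *TCF7L2* it lay between 0.865 and 0.961 in the 4 lines, and at *NKD1* between 0.943 and 1.06 in the G3-MB lines. At *TCF7* it was 0.559 in UW228, where the signal was highest, and 0.885 to 1.25 in the G3-MB lines. At *DKK1* it was 1.31 in UW228, 1.58 in MB002 and 0.578 in D425. Over all 10 genes and 4 lines, it ran from 0.4002 (*LGR5* in HD-MB03) to 1.58 (*DKK1* in MB002). After the signal was divided by this density, UW228 was above the G3-MB lines at the same 2 genes and below them at the same 3.

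**Figure D3:**
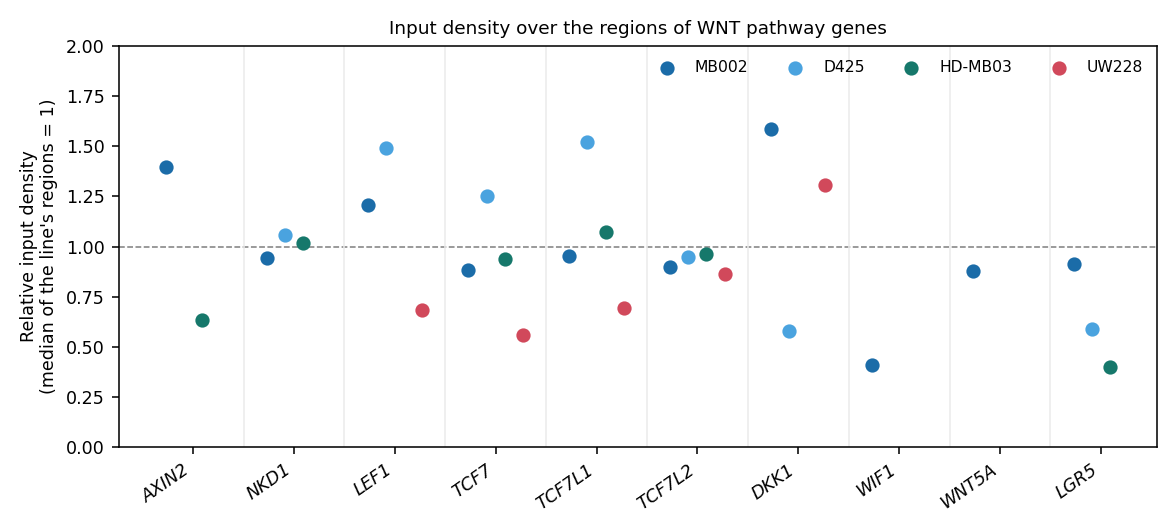
Relative input density of the regions of each gene (the median of all regions of the line is 1, dashed), with 1 point per gene and line that has a region. All points lie between 0.4002 and 1.58, and D425 is the highest line at *NKD1*, *LEF1*, *TCF7* and *TCF7L1*.

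The regions of the 10 genes were compared between lines. Of the 10 regions in UW228, 6 overlapped a region of MB002 by at least 1 bp, 5 one of D425 and 5 one of HD-MB03 (60%, 50% and 50%, against 24.7%, 30.0% and 18.7% of all regions of UW228). Of the 22 regions of MB002, 12 overlapped D425 and 9 overlapped HD-MB03 (54.5% and 40.9%, against 45.0% and 35.2% of all). These shares rest on few regions, several of them long and within the same gene, and longer regions overlap more readily. Of the 18 regions of HD-MB03, 9 overlapped MB002 and 8 overlapped D425 (50% and 44.4%, against 61.2% and 51.2% of all). UW228 was overlapped by 6 of these 18 (33.3% against 26.2%). Of the 19 regions of D425, 13 overlapped MB002 (68.4% against 45.4%), 7 HD-MB03 (36.8% against 29.9%) and 4 UW228 (21.1% against 24.4%). Of the 22 regions of MB002, 6 overlapped UW228 (27.3% against 20.3%).

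The TCF/LEF core letters were counted in the regions of the 10 genes and over all regions, with no test. CTTTGAT on either strand occurred 0.156 times per kb in the regions of the 10 genes in MB002, against 0.158 over all regions of the line. The values were 0.123 against 0.145 in D425, 0.139 against 0.124 in HD-MB03 and 0.0991 against 0.162 in UW228. By regions with at least 1 match the order turned. They were 10 of 22 in MB002, against 36.1% of all regions, 8 of 19 in D425 against 32.3%, 5 of 18 in HD-MB03 against 30.4% and 5 of 10 in UW228 against 41.9%. The rates thus gave no direction that held by both measures. By gene, over the regions of all lines, the rate was 0.776 per kb for *DKK1*, 0.195 for *LGR5*, 0.173 for *NKD1*, 0.134 for *TCF7L1*, 0.112 for *TCF7L2* and 0.0437 for *TCF7*, with no match at *AXIN2*, *LEF1*, *WIF1* and *WNT5A*, whose regions are short. A stretch called in several lines was counted once per line in these rates, so the 4 distinct matches of *DKK1* enter as 5. RefSeq promoter windows of 300 bases were found for 7 of the 10 genes. None of their 11 windows held the letters, which 2.62% of 35116 windows over all genes did. A match describes the sequence only and shows no binding, and these letters are 1 of several forms that the factors accept.

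The genes with the most similar profile were sought at least 1 Mb away or on another chromosome, by the distance of log2(signal + 1) over the 4 lines, for the genes with an SE. For *TCF7L1* this was *HLA-DMB* on chromosome 6, with a signal of 186 in UW228 and 38968 to 41663 in the G3-MB lines (distance 0.975). For *TCF7L2* it was *ARHGEF19* on chromosome 1, with 22051, 46826, 18754 and 41043, respectively (distance 0.429). Each was the closest of 17723 and 17737 genes compared, respectively, over 4 points.

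The 10 genes were set in a wider list of 89 WNT pathway genes, of which 86 had a region in at least 1 line. UW228 was above all 3 G3-MB lines at 20 of these (23.3%) and below all 3 at 22 (25.6%), near the 29.0% and 24.5% of all genes. The number of these genes with an SE was 8 for MB002, 9 for D425, 6 for HD-MB03 and 7 for UW228, and *TCF7L1* was the only one with an SE in all 3 G3-MB lines. Where both UW228 and a G3-MB line had signal, the median log2 ratio of UW228 to the highest G3-MB line was -1.24 over 59 genes of the list and -0.81 over 11595 genes in all. A ratio to the highest of 3 lines leans below 0 by its construction, so the list is read against the second value.

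The lists by role hold few genes, and no test compared them. Of 12 secreted antagonists with a region, UW228 was highest at 6 and lowest at 1. The 6 were *DKK1*, *DKK3*, *DKK4*, *SFRP1*, *SFRP2* and *FRZB*, and *SFRP1* and *SFRP2* had no region in any G3-MB line. Over the 9 antagonists with signal in UW228 and a G3-MB line, the median log2 ratio of UW228 to the highest G3-MB line was -1.34, against -0.81 for all genes. *SFRP1* and *SFRP2*, where UW228 was highest, and *WIF1* have no such ratio, so this median does not describe the whole list. *DKK1* left the 6 with a window of 100 kb. *DKK3*, a divergent member of the Dickkopf family, had the highest signal of the list in UW228, with 83261 and an SE (rank 246), and reached 24489.7 in HD-MB03, 8399.5 in D425 and 131 in MB002. Of 18 ligands, UW228 was highest at 4 and lowest at 7, but *WNT1* and *WNT10B*, and *WNT6* and *WNT10A*, are neighbors with shared regions, so the 7 genes stand for 5 loci. *WNT16* reached 20355 in UW228 and was at most 2961 in the G3-MB lines, and *WNT5B* was 16706, 5920.1, 9156 and 15817 in the 4 lines. Of 15 receptors, UW228 was highest at 5 and lowest at 2. *FZD2* had an SE in UW228 (51128, rank 315) and at most 3628 in the G3-MB lines, whereas *ROR1*, a receptor for *WNT5A*, had SEs in MB002 and HD-MB03 (85345 and 44431), 48639 without an SE in UW228 and 3954 in D425.

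Of 17 cytoplasmic components, UW228 was highest at 2 and lowest at 6. *BTRC*, which recognizes marked β-catenin, was between 27665 and 83413 in the G3-MB lines, with no region in UW228, and *CSNK1A1*, a kinase of the destruction complex, was 29303 in UW228 and at most 5048 in the others. Of 8 genes of the R-spondin axis with a region, UW228 was highest at 1, *LGR4* (31565 against at most 11409.5 in the G3-MB lines), and lowest at 2, *LGR5* and *LGR6*, and *ZNRF3* had an SE in D425 (41385). Of 14 nuclear components, UW228 was highest at 2 and lowest at 4. *PYGO2*, a β-catenin co-activator, had 64870.1 in HD-MB03, 56645 in D425, 41911 in MB002 and 38925 in UW228. Both secretion genes lay between the G3-MB lines in UW228, *WLS* with 14468 and *PORCN* with 10919.6. *PORCN* had SEs in MB002 and D425 (62340 and 58969) and 3595.6 in HD-MB03.

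**Figure D4:**
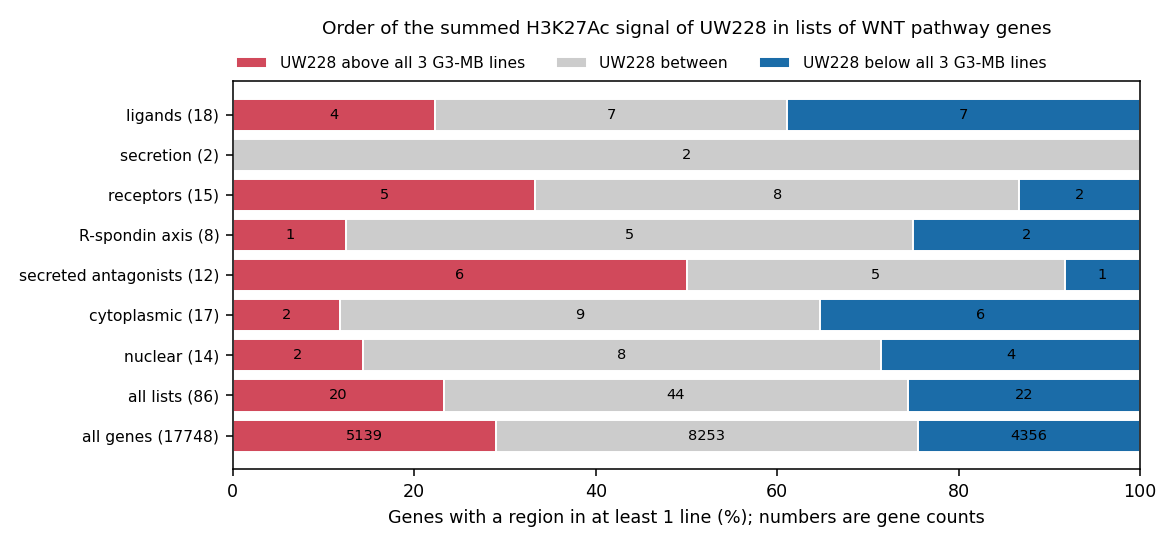
Share of genes with a region (x axis, %) in each of 7 WNT pathway lists, in all lists together and over all genes, at which UW228 was above (red), between (grey) or below (blue) the 3 G3-MB lines; numbers are genes and the number in parentheses is the total. Secreted antagonists have 6 of 12 genes above and 1 below, against 29.0% and 24.5% of all genes. The median log2 ratio to the highest G3-MB line is -1.34 over the 9 of them with signal in UW228 and a G3-MB line, and -0.81 over all such genes.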

How the data were processed

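H3K27Ac and input ChIP-seq of MB002, D425, HD-MB03 and UW228 was analysed, with 1 library of each kind per line. The authors aligned reads to GRCh38 with Bowtie2 2.3.0, converted them with SAMtools 1.9, called peaks over input with MACS2 2.2.6, excluded promoter flanks (incompletely, since each line kept 92 to 140 regions of a single peak within 2.5 kb of a start site), and stitched and ranked the peaks with ROSE. The deposited signal of each region is the H3K27Ac or input density in reads per base pair, corrected for library size, times the region length. The deposited score is the rank of the region, and a further deposited score marks the SE calls. Input was subtracted and the remainder floored at 0, and its order equalled the deposited rank for 100% of regions in each line. Depth was not given, so no precision from counts was derived.

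Genes were the protein-coding genes of GENCODE 44 on chromosomes other than Y and the mitochondrial one, with the MANE Select start site where there is one. Coordinates were read as counted from 1, and a printed sequence includes both end positions, so it is 1 base longer than the deposited length. A gene had the regions that overlap its body or lie within 50 kb of its start site, and a region could serve several genes. Python 3.11.15, numpy 2.4.6, pandas 2.3.3 and matplotlib 3.10.9 were used. The assignment and the tangent cutoff of ROSE were tested on simulated data. The members and all gene lists were chosen with earlier results of these data known, and the subgroup markers and the comparison without regions under 1 kb were added after the data were seen. All 10 members are named in full. In each wider list, the gene highest in UW228 and the gene with the highest mean of the G3-MB lines are named, and so is the gene most like each member that has an SE. The secreted antagonists highest in UW228, the R-spondin receptors lowest in it and the ligands with shared regions were named after their values were seen. No test was run, because lines are not replicates of each other.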

Additional observations from a re-analysis of the deposited data

How the results depend on the processing

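Every value rests on 1 library per line, and the gene link on position alone. Of the alternatives to the counts, 133 stayed within 1.5 times of the value reported and 15 did not. Of those to single values of a gene, 358 stayed within 1.5 times of it, 45 moved by more and 8 changed sign. Part of this was fixed in advance, because several settings keep the same regions. The signal as a share of the line's total also keeps every rank and SE call. A rank near the end of the list cannot worsen by 1.5 times. These tallies therefore do not measure how firm the results are. With the upper 50% of ranks only, 5 genes had a region in MB002 and 3 in UW228, against 51.8% and 40.9% of all genes, and the same 5 and 3 were found without regions under 1 kb, a choice made after the data were seen, against 56.5% and 49.9%. *TCF7L1* then lost its regions in UW228. When the signal was divided by relative input density, *NKD1* and *TCF7L2* joined *TCF7L1* as genes with an SE in MB002, for 3 genes, and *TCF7L2* joined it in D425, for 2. With regions ordered by mean signal per base pair, 0 genes had an SE in any of the 4 lines. Without input subtraction, 0 genes had an SE in HD-MB03. The share of all genes with an SE was not computed for these other ways of ranking.

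UW228 was above all G3-MB lines at 4 genes with a window of 25 kb and with overlap of the gene body only, where *LEF1* and *TCF7L2* were added, and at 1 gene with a window of 100 kb, where *DKK1* was lost. Leaving out 1 G3-MB line at a time gave 2 to 4 genes, the 4 being without D425. The share of all genes was not computed with these settings, so these counts have no background beside them. The log2 ratio of UW228 to the highest G3-MB line changed sign at *LEF1* (-2.29) to 1.97 with 25 kb or the gene body and to 0.57 without D425. At *TCF7L2* (-0.15) it changed to 0.034 with 25 kb or the gene body, 0.46 without regions over a start site and 0.39 without D425. At *DKK1* (3.57) it became -0.67 with a window of 100 kb. The ratio stayed negative at *TCF7L1*, from -8.32 to -1.81, and positive at *TCF7*, from 0.50 to 3.35, wherever it could be computed. The cause of these changes was not tested beyond what each setting leaves out. No paired analysis was possible because each line has 1 H3K27Ac library and no test was run.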
